A study of Sus scrofa with 2 samples.

Results

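Cathepsins are the proteases of the lysosome, and 7 of them were followed here by gene symbol: CTSL, CTSB, CTSD, CTSS, CTSK, CTSH and CTSZ. Of these, 6 had a row among the 31908 genes of the matrices, and CTSK was not analysed here because neither its symbol nor its gene identifier was listed. The measurements were UMI counts, numbers of unique transcript tags, in single cells of farm pig skin (male animals, dorsal side). There was 1 10x Genomics 3′ library of freshly isolated cells and 1 of cells that had been frozen in 90% FBS with 10% DMSO and thawed. Dead cells and aggregates were sorted out before loading. Whether 1 animal gave both libraries is not given in the sources used here, and the extraction text of the fresh sample also describes freezing, while its title, its treatment label and the study call it fresh.

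CTSL, CTSB, CTSS, CTSH, CTSZ and CTSK belong to the papain family of cysteine proteases, and CTSD is an aspartic protease. They are made as inactive precursors, sorted to lysosomes by mannose 6-phosphate receptors and activated at acid pH, and cystatins inhibit the cysteine members. In antigen-presenting cells CTSS trims the invariant chain encoded by CD74, and in skin CTSL and its relatives act in macrophages, in keratinocytes and in hair follicles.

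After the study's limits on genes, UMIs and mitochondrial share, 2775 fresh and 4223 cryopreserved cells were left, with 32274985 and 36687009 UMIs and a median of 11017 and 7945 UMIs per cell. The libraries shared 6 barcodes, 5 of them among the filtered cells. Cells were grouped into 24 clusters with the cathepsin genes left out of the features. From marker genes, 21 clusters were named as 10 lineages and 3 stayed unnamed. With 1 library per condition there is no spread between samples, so no test was run: differences describe this pair of libraries, and all intervals are 95% intervals that cover counting error only.

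CTSL lies on chromosome 10 of Sscrofa11.1 (27668523 to 27674705, minus strand) and has 8 exons in RefSeq. The same chromosome carries CTSV (25202360 to 25208058, plus strand), which RefSeq also lists under the synonym CTSL. The coding sequences of CTSL and CTSV were 86.0% identical over 997 aligned bases. The longest run that their transcripts share exactly was 46 bases, and it was 31 bases within the last 500 bases, where 3′ tags fall. CTSS on chromosome 4 (98415273 to 98442952, plus strand) was the next closest measured member, with 66.3% identity to CTSL and a longest shared run of 20 bases. CTSB lies on chromosome 14 (15014139 to 15035081), CTSD on chromosome 2 (1188548 to 1197642), CTSH on chromosome 7 (48084882 to 48106072) and CTSZ on chromosome 17 (59141497 to 59149377), all on the minus strand.

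The 250 bases before the RefSeq gene start are shown for CTSL and for CTSD, the member that varied most closely with CTSL among macrophage-like cells (values below). The capitals mark the GC box GGGCGG or its complement on the other strand, the only one of 4 motifs searched on both strands that was found in these windows. It was present before 5 of the 6 measured members, all but CTSB, and before 45.9% of 19559 protein-coding genes. The E-box core CACGTG of lysosomal genes was found before 0 of the 6 and before 6.39% of all genes. The PU.1 site GAGGAAGT and the AP-1 site TGACTCA were likewise found before 0 of the 6, against 1.64% and 2.90% of all genes.
CTSL, chr10:27674706-27674955, minus strand: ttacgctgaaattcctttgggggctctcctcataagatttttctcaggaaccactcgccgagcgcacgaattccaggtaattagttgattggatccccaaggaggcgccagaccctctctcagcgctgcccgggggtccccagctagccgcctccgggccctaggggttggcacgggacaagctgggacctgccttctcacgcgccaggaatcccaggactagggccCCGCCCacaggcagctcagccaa
CTSD, chr2:1197643-1197892, minus strand: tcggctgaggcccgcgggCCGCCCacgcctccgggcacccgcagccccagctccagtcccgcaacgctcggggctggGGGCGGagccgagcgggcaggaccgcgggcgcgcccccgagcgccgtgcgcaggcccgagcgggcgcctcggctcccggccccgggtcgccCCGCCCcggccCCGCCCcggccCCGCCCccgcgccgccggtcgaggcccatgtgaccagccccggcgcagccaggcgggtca
The CTSL window held 1 GC box, 23 bases before the gene start, and 61.6% G or C. The CTSD window held 5, with 85.2% G or C. The median over all genes was 57.6% G or C.

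CTSL, a cysteine endoprotease, was almost confined to macrophage-like cells in both libraries. Macrophage-like cells (154 fresh and 276 cryopreserved) held 2972 of 3164 fresh CTSL UMIs, or 93.9% (interval 93.04 to 94.7%). In the cryopreserved library they held 6484 of 6762, or 95.9% (95.4 to 96.3%). They were 154 of 2775 and 276 of 4223 cells. The lineages were named here from marker genes and were not matched to the study's own cell types. In the study macrophages had a smaller share of cells, and dendritic cells were listed apart. CTSL was at 1956 counts per 1000000 UMIs (CPM, interval 1886 to 2028) in fresh and 2926 CPM (2855 to 2998) in cryopreserved macrophage-like cells. This was 318-fold (275 to 370) and 358-fold (317 to 405) the level of the remaining cells, which was at 6.16 and 8.18 CPM.

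Next in order, CTSL was at 12.96 CPM (10.1 to 16.4) in fresh and 23.7 CPM (20.2 to 27.5) in cryopreserved basal keratinocyte-like cells. Mural-like cells, which are smooth muscle cells or pericytes, were at 9.23 CPM (5.47 to 14.6) and 12.6 CPM (8.07 to 18.8). Differentiated keratinocyte-like cells were at 6.77 CPM (3.94 to 10.8) and 8.42 CPM (5.60 to 12.2). In the fresh library the intervals of neighbours in this order, down to fibroblast-like cells, overlapped. In the cryopreserved library those of mural-like and differentiated keratinocyte-like cells overlapped, while basal keratinocyte-like cells lay above them and fibroblast-like cells below. Fibroblast-like cells were at 3.09 CPM (2.27 to 4.11) and 2.97 CPM (2.17 to 3.96). Langerhans or other dendritic-like, T or NK-like and blood endothelial-like cells held 1 to 3 CTSL UMIs in each library. Mast-like cells held 2 fresh UMIs and 0 cryopreserved ones, where the interval reached 13.8 CPM and 3 UMIs would be 11.2 CPM. In lymphatic endothelial-like cells CTSL was at 36.6 CPM in the fresh library, but 27 of the 30 UMIs came from 1 cell, which also held 3 UMIs of C1Q genes. Without it 3 UMIs were left, near the 2 UMIs of the cryopreserved library.

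**Figure D1:**
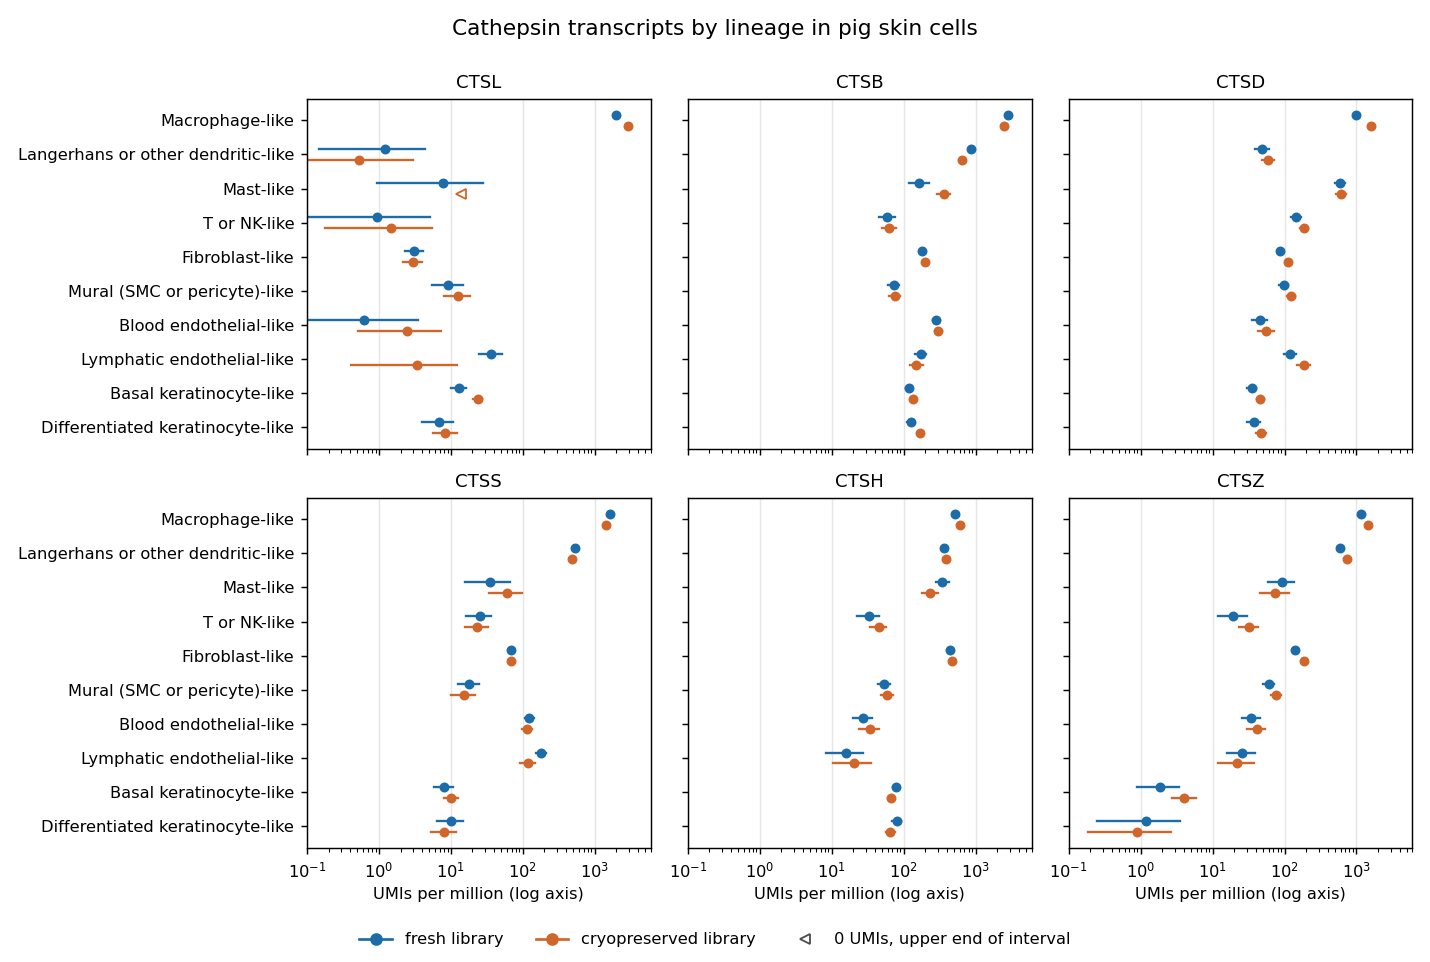
CPM (log axis) of 6 cathepsins in 10 lineages; points are sums over the cells of 1 library and lines are exact Poisson intervals for counting error. CTSL in macrophage-like cells, at 1956 and 2926 CPM, stands far to the right of its other lineages, while the other cathepsins spread over several lineages.

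Of the cells with a CTSL UMI, 97 fresh and 181 cryopreserved ones were macrophage-like, and 53 and 110 were basal keratinocyte-like. As a share of the cells of a lineage they were nevertheless fewer in every lineage other than the macrophage-like one. The share was 63.0% of fresh and 65.6% of cryopreserved macrophage-like cells, 13.7% and 14.1% of basal keratinocyte-like cells, and 3.17% and 2.70% of fibroblast-like cells. T or NK-like cells, which served as background, were at 0.690% and 0.787%. The median depths were 8458.5 and 7490 UMIs per cell for macrophage-like, 13998.5 and 8859 for basal keratinocyte-like and 6512 and 4813 for T or NK-like cells. After thinning each cell to 1000 UMIs, the shares were 43.3% and 50% in macrophage-like cells, 1.299% and 2.20% in basal keratinocyte-like cells and 0% and 0.394% in T or NK-like cells. The thinned intervals of basal keratinocyte-like cells (0.423 to 3.005% and 1.29 to 3.51%) and of T or NK-like cells (0 to 2.51% and 0.00997 to 2.17%) overlapped. The basal level is therefore close to what the thinned depth can resolve. Within basal keratinocyte-like cells CTSL was highest in the cluster led by MMP3, EREG and ITGA2, at 21.5 CPM in fresh and 44.0 CPM in cryopreserved cells. A UMI of the C1Q genes, listed here as macrophage markers, was in 2 of the 53 fresh and 4 of the 110 cryopreserved CTSL-bearing basal cells. Among all basal keratinocyte-like cells it was in 6 of 388 fresh and 30 of 780 cryopreserved cells. Langerhans or other dendritic-like cells carried it too, in 29 of 107 and 52 of 182 cells. The part of macrophage RNA in the basal CTSL counts was not tested.

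The macrophage-like lineage joined 2 clusters, and CTSL separated them. The larger one (140 fresh and 232 cryopreserved cells) was led by CD209, a lectin receptor, and C4BPA. It also detected CD163, MRC1, CSF1R and the C1Q genes. The smaller one (14 and 44 cells) was led by ARG1 and MARCO, a scavenger receptor. It met the marker criteria for 8 macrophage genes, but the summed level of all 10 listed was 2633 and 3760 CPM against 16626 and 23488 CPM in the larger cluster, with C1QA at 314 and 903 CPM against 5293 and 6636 CPM. The 3 measured neutrophil markers (CSF3R, S100A8 and S100A12) summed to 13 and 22 UMIs, or 90.8 and 63.5 CPM, against 0 and 7 UMIs in the larger cluster, and by mean fold over the list they scored above the macrophage markers. The name of the smaller cluster is therefore uncertain. In the larger cluster CTSL was at 2160 CPM (2083 to 2239) in fresh and 3467 CPM (3384 to 3553) in cryopreserved cells. In the smaller cluster it had 0 UMIs in fresh cells, where 3 UMIs would be 20.9 CPM, and 2 UMIs in cryopreserved cells, or 5.77 CPM (0.699 to 20.8). CD209 and C4BPA were also at 0 UMIs in the fresh cells of the smaller cluster, and at 1 and 2 UMIs in its cryopreserved cells.

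The other cathepsins were present in both clusters. CTSB, a cysteine protease that also trims peptides from the C-terminal end, was at 3015 and 2847 CPM in the larger and 642 and 655 CPM in the smaller cluster (fresh and cryopreserved). CTSD was at 1061 and 1781 CPM in the larger and 272 and 447 CPM in the smaller one. CTSZ, a carboxypeptidase, was at 1210 and 1581 CPM against 684 and 848 CPM. These 3 were higher in the larger cluster in both libraries, with intervals that did not overlap. CTSS was at 1722 and 1466 CPM in the larger and 971 and 1411 CPM in the smaller cluster, and in the cryopreserved cells the intervals overlapped. CTSH, an aminopeptidase, was at 517 and 552 CPM against 545 and 857 CPM, and the intervals overlapped in fresh but not in cryopreserved cells. The smaller cluster also held UMIs of the mast cell marker KIT (86 fresh and 115 cryopreserved), and the part of these and of the neutrophil markers in the values was not tested.

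**Figure D2:**
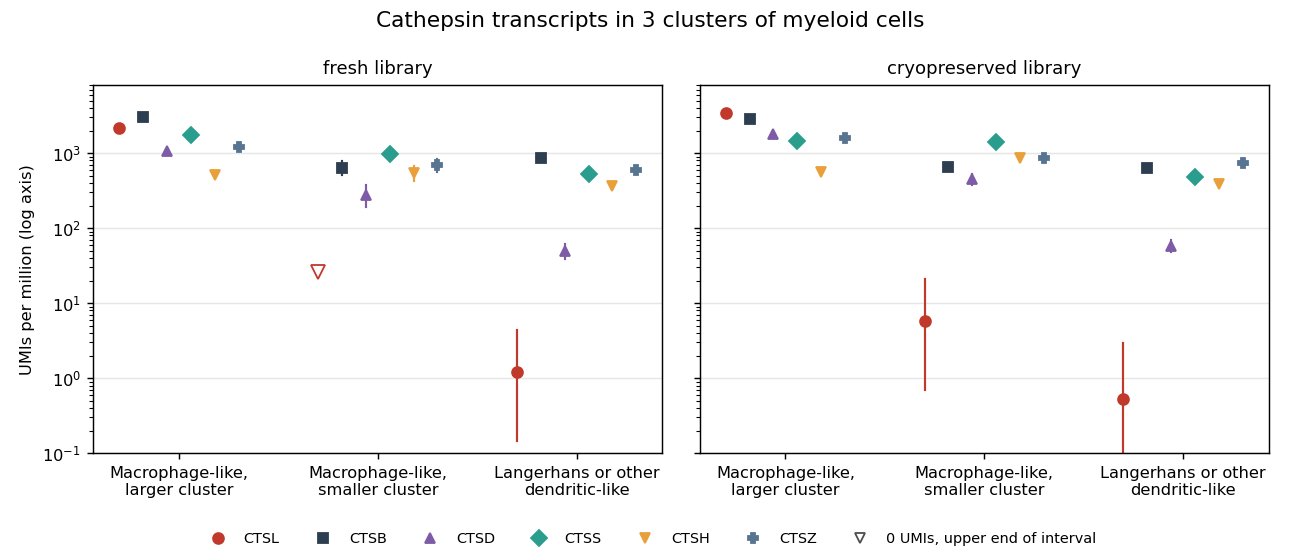
CPM (log axis) of 6 cathepsins in both macrophage-like clusters and in the Langerhans or other dendritic-like cluster, by library; lines are exact Poisson intervals for counting error. CTSL drops from 2160 and 3467 CPM in the larger macrophage-like cluster to 2 UMIs or fewer in the other clusters, while CTSB, CTSS, CTSH and CTSZ stay above 300 CPM in all of them.

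CTSL was also uneven among the cells of the larger cluster. In the fresh library CTSL ranged from 0 to 296 UMIs per cell with a median of 3, and 30.7% of cells (23.2 to 39.1%) had none. In the cryopreserved library it ranged from 0 to 221 with a median of 7.5, and 22.8% (17.6 to 28.8%) had none. For CTSB the medians were 24 and 21 UMIs per cell, and 1.43% and 2.59% of cells had none. Cells without a UMI were not particular to CTSL. They were 28.6% and 27.2% for CTSH, 16.4% and 7.33% for CTSZ, 12.1% and 9.91% for CTSD, and 3.57% and 8.19% for CTSS. In the fresh library 9 of 140 cells, with over 100 CTSL UMIs each, held 60.0% of the cluster's CTSL UMIs. In the cryopreserved library 22 of 232 such cells held 46.6%. The coefficient of variation over cells thinned to 1000 UMIs was 1.77 and 1.39 for CTSL, above the 0.862 and 0.851 of CTSB. It was 1.91 and 1.78 for CTSH, whose thinned mean was only 0.338 and 0.417 UMIs, against 1.64 and 2.8 for CTSL. The variance over the mean of the thinned counts was 5.13 and 5.44 for CTSL. By this measure CTSB was at 2.34 and 2.02 and CTSH at 1.24 and 1.32. Cells with over 10 CTSL UMIs were also deeper than cells without one, with a median of 14062 against 6363 UMIs in the fresh and 10594 against 4935 in the cryopreserved library. Their median mitochondrial share was lower, at 2.45% against 4.401% and 1.74% against 3.93%. The part of depth and of the mitochondrial share in the unevenness was not tested beyond the thinning.

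**Figure D3:**
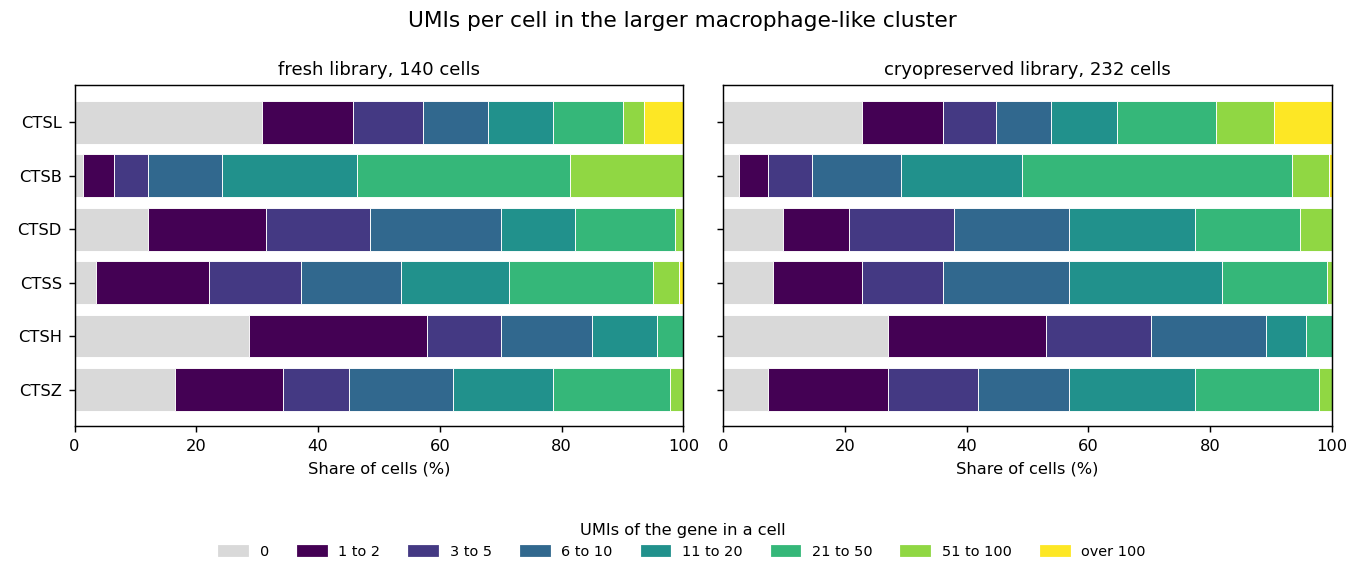
Share of cells (%) by the number of UMIs of each cathepsin, in the 140 fresh and 232 cryopreserved cells of the larger macrophage-like cluster. CTSL has both many cells without a UMI (30.7% and 22.8%) and the most cells over 100 UMIs (9 and 22). CTSH also has many cells without a UMI (28.6% and 27.2%).

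Over all filtered cells the unevenness was larger still. The top 1% of cells held 79.7% of fresh (28 cells) and 66.1% of cryopreserved (43 cells) CTSL UMIs. For the other members the top 1% held 13.2 to 28.3% of fresh and 16.3 to 27.1% of cryopreserved UMIs. By standardized variance, a measure of spread after the trend with the mean is removed, CTSL ranked 17 among fresh and 1 among cryopreserved cells. The other members ranked between 251 (CTSS) and 1702 (CTSH) in the fresh library and between 305 (CTSS) and 983 (CTSH) in the cryopreserved one. By the dispersion method CTSL ranked 102 and 164, while the next member, CTSS, ranked 1839 and 1573.

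The remaining members were high in macrophage-like cells too, and they also reached other lineages. At least 2-fold higher CPM than in the remaining cells in both libraries was reached by 5 of the 6 members in macrophage-like cells, against 9.81% of all 11692 genes tested. CTSB was 14.3-fold and 12.7-fold, CTSD 12.9-fold and 16.2-fold, CTSS 20.97-fold and 20.5-fold, and CTSZ 10.4-fold and 10.7-fold higher there (fresh and cryopreserved). CTSH was 1.97-fold and 2.21-fold higher and so missed the limit in the fresh library. The median over the 6 members was 13.6-fold and 14.5-fold, beside 0.846 and 0.776 over all genes tested. The clusters were made from these cells, so the folds describe the lineages and are not a test of them.

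CTSS and CTSZ were the members shared with the Langerhans or other dendritic-like cells, where 2 of the 6 members passed the 2-fold limit against 7.55% of all genes. CTSS was at 530 CPM (495 to 566) and 479 CPM (449 to 512) there, 4.02-fold and 3.46-fold the remaining cells. CTSZ was at 589 CPM (553 to 628) and 735 CPM (697 to 775), 4.29-fold and 3.85-fold. CTSB was at 870 and 641 CPM in the same cells, 3.03-fold and 1.99-fold, and missed the limit in the cryopreserved library. CD74, whose product CTSS cuts, was at 21695 and 29541 CPM there and at 7048 and 7273 CPM in macrophage-like cells.

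In fibroblast-like cells 1 of the 6 members passed the limit, against 10.2% of all genes, which is no more than a description of that gene. This was CTSH, at 434 CPM (424 to 445) and 477 CPM (466 to 488), 3.17-fold and 3.12-fold the remaining cells. These cells held 73.4% of fresh and 70.0% of cryopreserved CTSH UMIs. The CPM of CTSH was nevertheless higher in macrophage-like cells, at 519 and 599 CPM. In mast-like cells 1 of the 6 members passed, CTSD, against 9.19% of all genes, and such a share is again too near the background to be a result about the members. CTSD was at 590 CPM (501 to 691) and 606 CPM (516 to 706), 5.13-fold and 3.29-fold the remaining cells, and below its 987 and 1572 CPM in macrophage-like cells. CTSZ was lowest in keratinocytes, at 1.88 and 4.04 CPM in basal and 1.19 and 0.902 CPM in differentiated keratinocyte-like cells.

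The other genes of the lysosomal pathway were counted from fixed lists, to be set against the 9.81% of all 11692 genes that passed in macrophage-like cells. Of the lysosomal membrane proteins and hydrolases, 19 of the 22 that passed the minimum of 200 UMIs were at least 2-fold higher in macrophage-like cells in both libraries, with a list median of 4.98-fold and 4.42-fold. Among them ACP5, an acid phosphatase, was at 773 and 649 CPM and LIPA, the lysosomal lipase, at 264 and 201 CPM. The 3 that did not pass the limit were LAMP2, CD63 and GAA. Of the sorting and activation genes 2 of 6 passed. LGMN, the legumain protease that processes cathepsin precursors, was at 2951 and 2918 CPM, 46.6-fold and 44.8-fold the remaining cells, and GNPTAB was 4.08-fold and 3.51-fold. Of the inhibitors 2 of 5 passed, cystatin B (CSTB, 6.38-fold and 6.52-fold) and cystatin C (CST3, 6.43-fold and 7.39-fold). CSTA, at 521 and 517 CPM, was instead highest in differentiated keratinocyte-like cells and at 6.58 and 10.8 CPM in macrophage-like cells. Of the factors that drive lysosomal genes (TFEB, TFE3 and MITF) 0 of 3 passed, and 3 genes are too few to set against the 9.81%. The median of these 3 was 1.97-fold and 1.77-fold, under the limit, beside 0.846 and 0.776 over all genes tested.

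Of 6 other measured cathepsins, CTSA (7.83-fold and 7.09-fold) and CTSC (2.38-fold and 2.30-fold) passed in macrophage-like cells, against 9.81% of all genes. CTSV had the opposite pattern to CTSL between macrophage-like and fibroblast-like cells. It was at 230 and 283 CPM in fibroblast-like and 211 and 191 CPM in basal keratinocyte-like cells, and at 8.56 and 18.1 CPM in macrophage-like cells. Fibroblast-like cells, with 3489 and 4382 CTSV UMIs, held 47 and 46 CTSL UMIs. Macrophage-like cells, with 2972 and 6484 CTSL UMIs, held 13 and 40 CTSV UMIs.

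Over 20 profiles, 1 for each lineage and library, the genes most like CTSL were PEPD (r = 0.90), CD209 (0.89), ENSSSCG00000031640 (0.89), BLVRB (0.88) and C4BPA (0.85). Pearson's r was taken on log2(CPM + 1), and the profiles share libraries and depth, so it is a description. CTSB was most like C1QA (0.93) and PSAP (0.93), CTSS most like SLC7A7 (0.96) and DNASE1L3 (0.90), and CTSZ most like ABR (0.96) and ENSSSCG00000039731 (0.90). CTSD was most like RCBTB1 (0.93) and FTL (0.91), and CTSH most like TMEM35B (0.91) and YKT6 (0.89). Among members the highest r was 0.88 between CTSB and CTSS. CTSL reached 0.56 with CTSB and with CTSD, and 0.29 with CTSH.

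Among the single cells of the larger macrophage-like cluster, 1242 genes could be compared with CTSL in both libraries. Genes were ordered by the weaker r of the libraries. By this order the highest were C4BPA (0.48 fresh and 0.63 cryopreserved), NRP2 (0.46 and 0.48) and CD209 (0.45 and 0.60), followed by PEPD, ENSSSCG00000031640 and SOD2. In the cryopreserved library alone SOD2 (0.57) and ENSSSCG00000031640 (0.55) lay above NRP2. CTSD came next, at 0.39 and 0.48, the highest of the other members. CTSB was at 0.37 and 0.31, CTSS at 0.27 and 0.21, and CTSH at 0.09 and 0.21. CTSZ was at 0.06 and 0.17. The lowest r by the same order were those of mitochondrial transcripts, led by COX2 (-0.35 and -0.45), and of SLA-DRB1, a class II gene (-0.31 and -0.45). ENSSSCG00000001456 (-0.28 and -0.48) lay below COX2 in the cryopreserved library alone. CD74 was at -0.28 and -0.27. The lower mitochondrial share and greater depth of CTSL-rich cells, given above, move with these r, and their part was not tested. The cells of a library share its depth and free RNA, and 140 and 232 cells were used.

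Between the libraries, CTSL had the largest ratio of the members. Over all filtered cells its 3164 fresh and 6762 cryopreserved UMIs gave 96.7 CPM (93.4 to 100.2) and 187 CPM (182 to 191), a ratio of 1.93 (1.85 to 2.01), or 0.95 on the log2 scale. None of the members was called at 2-fold: 0 of 6, with 1.07% of 11692 genes past 2-fold in either direction. Without the cell with most CTSL UMIs in each library the log2 ratio was 1.04, past the limit. At or above the log2 ratio of CTSL were 111 genes, or 0.949%, counting CTSL. CTSD went from 119 to 187 CPM (ratio 1.57, 1.51 to 1.64) and CTSZ from 160 to 219 CPM (1.37, 1.32 to 1.41). CTSB (1.07), CTSH (1.06) and CTSS (1.03) lay near 1. The median log2 ratio of all genes was 0.03. The log2 ratio went below 0 for CTSB and CTSS when the fresh lineage shares of UMIs were applied to both libraries (-0.041 and -0.13). For CTSH it went below 0 over all deposited barcodes (-0.11).

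Macrophage-like cells were 154 of 2775 fresh and 276 of 4223 cryopreserved cells. They held 1499278 of 32274985 fresh and 2245640 of 36687009 cryopreserved UMIs. The level of CTSL within them also differed between the libraries. With the fresh lineage shares of UMIs applied to both libraries the log2 ratio of CTSL was 0.56. Within macrophage-like cells it was 0.58 (0.52 to 0.64), and within the larger cluster alone, a choice made after seeing the data, it was 0.68. Of all 6620 genes tested within macrophage-like cells, 9.09% had a log2 ratio at or above that of CTSL. In basal keratinocyte-like cells the log2 ratio of CTSL was 0.87 (0.46 to 1.29), from 69 and 170 UMIs. With coarser clusters (resolution 0.4) it was 1.71 (0.62 to 3.003), past 2-fold. That interval was wider, the cells given the basal name can differ there, and the minimum of 50 UMIs was not applied. In fibroblast-like cells it was -0.06 (-0.68 to 0.56). In the larger cluster CD209 and C4BPA, which follow CTSL among lineages, were also higher in cryopreserved cells. They went from 1302 to 3178 CPM and from 7971 to 13037 CPM. This was not particular to them, as C1QA went from 5293 to 6636 CPM and C1QB from 4218 to 6681 CPM. The 10 listed macrophage markers, CD209 among them, summed to 16626 and 23488 CPM. Not every listed marker rose, and CD163 was at 434 and 375 CPM.

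**Figure D4:**
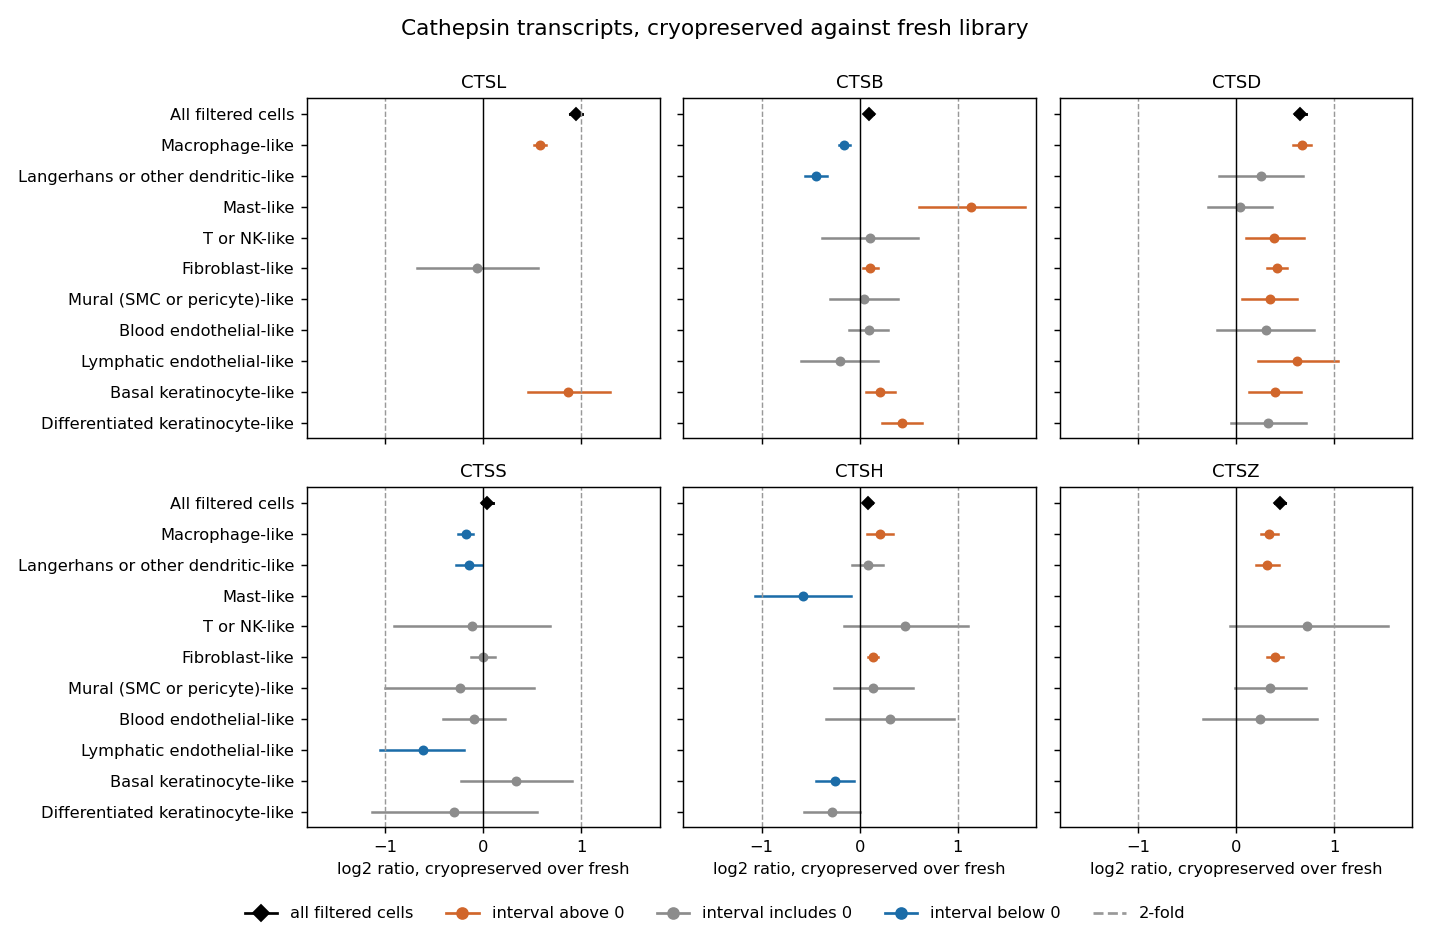
Log2 ratio of CPM, cryopreserved over fresh, for 6 cathepsins over all filtered cells and within lineages with at least 50 UMIs of the gene; lines are exact conditional binomial intervals for counting error and dashed lines mark 2-fold. All CTSD and CTSZ ratios lie above 0, most CTSS ratios lie below 0, and CTSB in mast-like cells alone (1.14) lies past 2-fold.

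Within lineages, 47 pairs of a member and a lineage had at least 50 UMIs. The interval of the ratio lay above 1 in 17, below 1 in 7 and included 1 in 23. Over all 66509 gene and lineage pairs it lay above 1 in 18.6% and below 1 in 16.2%, since it covers counting error only. The interval is narrower where a gene has more UMIs, and these shares were not matched to the UMI counts of the members. Only 1 pair was past 2-fold, against 3.19% of all pairs: CTSB in mast-like cells, with 43 fresh and 97 cryopreserved UMIs (ratio 2.20, 1.52 to 3.23). The ratio was above 1 in 52.4% of all pairs. CTSD was higher in the cryopreserved library in 10 of 10 lineages, with 6 intervals above 1 and log2 ratios from 0.04 to 0.67. The lineages come from the same pair of libraries with shared scaling. Counts of lineages for CTSD, CTSZ and CTSS are therefore not independent, and the share of all genes with such counts was not computed. In macrophage-like cells CTSD went from 987 to 1572 CPM (ratio 1.59, 1.4996 to 1.69), and 6.34% of genes tested there were at or above it. In the other lineages this share ran from 10.0% (lymphatic endothelial-like) to 45.7% (mast-like). CTSZ was higher in 6 of 6 lineages, with 3 intervals above 1, at 1.26 (1.19 to 1.34) in macrophage-like and 1.31 (1.24 to 1.39) in fibroblast-like cells. There 20.7% and 15.8% of genes tested, in the same order, were at or above CTSZ.

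CTSS leaned the other way, higher in the cryopreserved library in 1 of 9 lineages and with 3 intervals below 1. These were lymphatic endothelial-like (0.65, 0.48 to 0.87), macrophage-like (0.88, 0.84 to 0.93) and Langerhans or other dendritic-like cells (0.90, 0.82 to 0.99). Of the macrophage-like clusters, only the larger had less CTSS in the cryopreserved library, while the smaller had more (CPM given above). CTSB differed by lineage: 0.74 (0.68 to 0.80) in Langerhans or other dendritic-like and 0.90 (0.86 to 0.93) in macrophage-like cells, and 1.35 (1.17 to 1.55) in differentiated keratinocyte-like cells. CTSH was at 1.15 (1.06 to 1.26) in macrophage-like and 1.10 (1.06 to 1.14) in fibroblast-like cells, and at 0.84 (0.73 to 0.96) in basal keratinocyte-like cells. The macrophage-like ratios pool both clusters, of which the smaller had 14 fresh and 44 cryopreserved cells. CTSH differed less between the libraries in the larger cluster than in the smaller one (CPM given above). The part of this mix in the ratios was not tested. Cryopreserved cells of all 10 lineages had a lower median UMI count, and its part in the ratios was not tested.

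Of the other lysosomal lists, 0 genes were past 2-fold between the libraries, against 1.07% of all 11692 genes. Lists this short cannot show a departure from so small a share. The ratio was above 1 for 53.5% of all 11692 genes. The cathepsin inhibitors were higher in the cryopreserved library in 5 of 5, with a median log2 ratio of 0.44, led by CST6 (0.83) and CST7 (0.67). The lysosomal membrane proteins and hydrolases were higher in 19 of 22, with a median of 0.16, and the members in 6 of 6, with a median of 0.27. These counts are over all filtered cells, of which macrophage-like cells were 154 of 2775 fresh and 276 of 4223 cryopreserved. Most of these membrane proteins and hydrolases were at least 2-fold higher in macrophage-like cells. With the fresh lineage shares applied to both libraries, the log2 ratios of CTSB (-0.041) and CTSS (-0.13) were below 0. The part of the lineage shares in the other lists was not tested. MITF, at -0.38, was the lowest of the 3 transcription factors.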

How the data were processed

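The deposited matrices hold raw counts: the authors ran Cell Ranger 4.0.0 with STAR 2.5.1b on the Sscrofa11.1 genome and deposited the number of UMIs per gene and barcode without normalization, for 4379 fresh and 4860 cryopreserved barcodes. Cells within 4500 genes, 30000 UMIs and 10% mitochondrial UMIs (13 genes) were kept. Depth was 508 UMIs or more per filtered fresh cell and 500 or more per cryopreserved cell. Seurat 5.3.0 (R 4.3.3) integrated 2000 features without cathepsins, with 30 components and resolution 0.8. Clusters took a name from at least 3 markers, each in at least 10% of cells and 2-fold higher. Scrublet (scanpy 1.11.5) marked 3 fresh and 35 cryopreserved cells, which were kept. UMIs were summed over cells and scaled with TMM factors (edgeR 4.0.16). Intervals were exact Poisson, binomial or conditional binomial. Genes needed 200 UMIs over both libraries, or 50 within a lineage. Named genes were the members, fixed pathway lists and the genes most like each member. The ratio was checked on simulated counts. Members and lists were chosen with earlier results of these data known. Annotation came from RefSeq on the same build. CTSV, CD74 and HEXA, listed without a symbol, were matched by gene ID. DESeq2 1.42.0 gave alternative size factors.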

Additional observations from a re-analysis of the deposited data

Results flagged for a closer look

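CTSB differed between lineages in the direction of its cryopreserved to fresh ratio: the log2 ratio was 1.14 in mast-like cells and -0.44 in Langerhans or other dendritic-like cells, with intervals on opposite sides of 0. CTSH differed in the same way, at 0.21 in macrophage-like and -0.57 in mast-like cells. The macrophage-like value of CTSH pools both clusters, and the larger one differed less between the libraries than the smaller one (CPM given above). No CTSH ratio was computed for the larger cluster alone. These differences between lineages were not tested, since each lineage has 1 library per condition, and the mast-like values rest on 43 and 97 CTSB UMIs and on 90 and 62 CTSH UMIs.

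Barcodes outside the study's limits were used only where all deposited barcodes are named and, above the mitochondrial limit, in alternatives without it. These barcodes also held CTSL, at 30.1 CPM in 1604 fresh and 88.8 CPM in 637 cryopreserved barcodes, each scaled to the total of those barcodes. Both were above the level that 3 UMIs give there (0.143 and 0.542 CPM).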

How the results depend on the processing

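The log2 ratio of CTSL over all filtered cells stayed above 0 under all 7 alternatives tried, from 0.56 to 1.28. It was 1.28 over all deposited barcodes, 0.56 with the fresh lineage shares applied to both libraries and 1.04 without the cell with most UMIs of the gene in each library. The number of members past 2-fold was 1, not 0, over all deposited barcodes and without that cell, and in both cases this was CTSL. CTSB and CTSS reversed with the fresh lineage shares (-0.041 and -0.13) and CTSH over all deposited barcodes (-0.11), and the cause was not tested. The dispersion method gave CTSL rank 102 among fresh and 164 among cryopreserved cells. The share of CTSL UMIs in macrophage-like cells stayed within its interval under all 8 alternatives in each library (93.3 to 94.1% fresh and 95.4 to 96.0% cryopreserved). The CTSL log2 ratio within macrophage-like cells ran from 0.57 to 0.70 and left its interval (0.52 to 0.64) in 6 of 11 alternatives. It was 0.68 without the cell with most CTSL UMIs in each library, so the interval understates how far single cells move it. Within basal keratinocyte-like cells the ratio ran from 0.70 to 1.71, the highest at resolution 0.4, where its interval was wide. Within fibroblast-like cells it ran from -1.08 to 0.24, where few UMIs limit it. No paired analysis was possible because each condition has 1 library. Counts at this depth do not resolve CTSL in lineages with 1 to 3 UMIs.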
